A study of Arabidopsis thaliana with 41 samples.

Results

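The histone deacetylases HDT1, HDT2, HDT3, HDT4, HDA6, HDA9 and HDA19 and the adaptor SAP18 were followed through embryo growth in a val1 line and in wild type of Arabidopsis thaliana. The members were chosen by gene identifier, as AT3G44750 (HDT1, also HD2A), AT5G22650 (HDT2, HD2B), AT5G03740 (HDT3, HD2C), AT2G27840 (HDT4, HD2D), AT5G63110 (HDA6), AT3G44680 (HDA9), AT4G38130 (HDA19) and AT2G45640 (SAP18), and were 8 of 33544 genes with summed transcripts. Embryos were dissected from the seed in the cold and washed, and their mRNA was sequenced in bulk as paired reads. The val1 embryos were 7, 8, 10, 12, 13, 15 and 17 days old, with 3 libraries at each age, and carried a mutation in VAL1 whose allele the labels do not name. The wild-type (WT) embryos had the same ages, with 3 libraries each and 2 at day 17, which gave 41 libraries in 14 groups. The design names 3 biological and 4 technical replicates, and nothing ties a library to separate plants, so p-values measure the spread between these libraries, which may be technical in part.

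Histone deacetylases take acetyl groups off histone tails, which goes with tighter chromatin and lower transcription. The HD2 class (HDT1 to HDT4) is found in plants, resembles nucleophosmin-like nucleolar proteins, and acts in the nucleolus and on single genes. The RPD3 class (HDA6, HDA9, HDA19) is shared with yeast and animals: HDA6 silences rDNA, transposons and transgenes, HDA9 works with POWERDRESS, and HDA19 is recruited by corepressors such as TOPLESS and by SIN3-type proteins. SAP18 is a subunit of SIN3-type deacetylase complexes and of the ASAP complex, and has been described as a partner of VAL1, a B3-domain repressor of seed maturation genes.

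Values are FPKM (fragments per transcript length and sequencing depth), computed by the authors and scaled here between libraries, so they are per length. All 8 members passed the filter on low values. Estimated depth ran from 8321306 to 51738641 reads per library (median 29731894), with a val1 day 7 library the shallowest. VAL1 itself was lower in val1 than in WT libraries at every age, with 1.42 ± 0.653 against 11.5 ± 1.53 at day 7 and 2.56 ± 0.560 against 6.06 ± 0.509 at day 17 (SD, n = 3, and n = 2 for WT at day 17). The summed level of 6 embryo genes (LEC1, FUS3, ABI3, OLEO1, CRU1 and CRU3) was 594 to 943 in val1 and 401 to 825 in WT at day 7, and 241186 to 480983 in val1 and 173387 to 193883 in WT at day 17. CRU3 alone averaged 211415 in val1 and 84404 in WT at day 17. LEC1 went the other way, from 58.7 in val1 and 59.1 in WT at day 7 to 0 in both at day 17. FUS3 at day 17 was 27.6 ± 5.22 in val1 and 9.29 ± 2.45 in WT. The genotype difference varied with age for LEC1, FUS3 and ABI3 (limma, 3 of 6 called, beside 16.8% of all genes). LEC1 was called higher in val1 on average (1 of 6, beside 32.1%), and 2 of 6 were called higher at day 17 (beside 15.6%). Of 9 endosperm genes 8 averaged under 1 in every group from day 12 on, and EPR1 made up nearly all of that list there. Without EPR1 the list summed to 7.12 to 15.3 in val1 and 6.76 to 11.6 in WT at day 7. At day 12 it summed to 0.317 to 1.13 in val1 and 0.223 to 0.421 in WT. Seed coat genes summed to 25.9 to 55.1 in val1 and 25.5 to 57.3 in WT at day 7. Their sums at day 12 were 22.2 to 28.1 and 15.6 to 22.7. The part of these tissues in the changes with age was not tested. In bulk embryos, fewer cells of a type and less RNA per cell cannot be told apart.

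By limma all 8 members were called lower at day 12 than at day 7 in both genotypes. Of all genes, 38.5% were called lower in val1 and 38.8% in WT. The later courses of the members differed. At day 17, 7 of 8 were called higher than at day 12 in WT, beside 34.3% of all genes. HDT4 was at 12.5 at day 12 and 13.99 at day 17 in WT and was not called. In val1 HDT1 and HDT4 were called lower at day 17 than at day 12, beside 40.3% of all genes. HDT3, HDA6, HDA9, HDA19 and SAP18 were called higher in val1, beside 34.7%. HDT4 had a second high at day 13 in both genotypes, with means of 8.84, 27.3 and 7.14 at days 10, 13 and 17 in val1, and 7.63, 20.3 and 13.99 in WT. Levels varied over the 7 ages in both genotypes for all 8 members (limma F test over ages, largest adjusted p = 8.63e-07 in val1 and 5.12e-07 in WT), and 95.8% of all genes tested were called in val1 and 95.4% in WT, so that count sets no member apart.

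**Figure D1:**
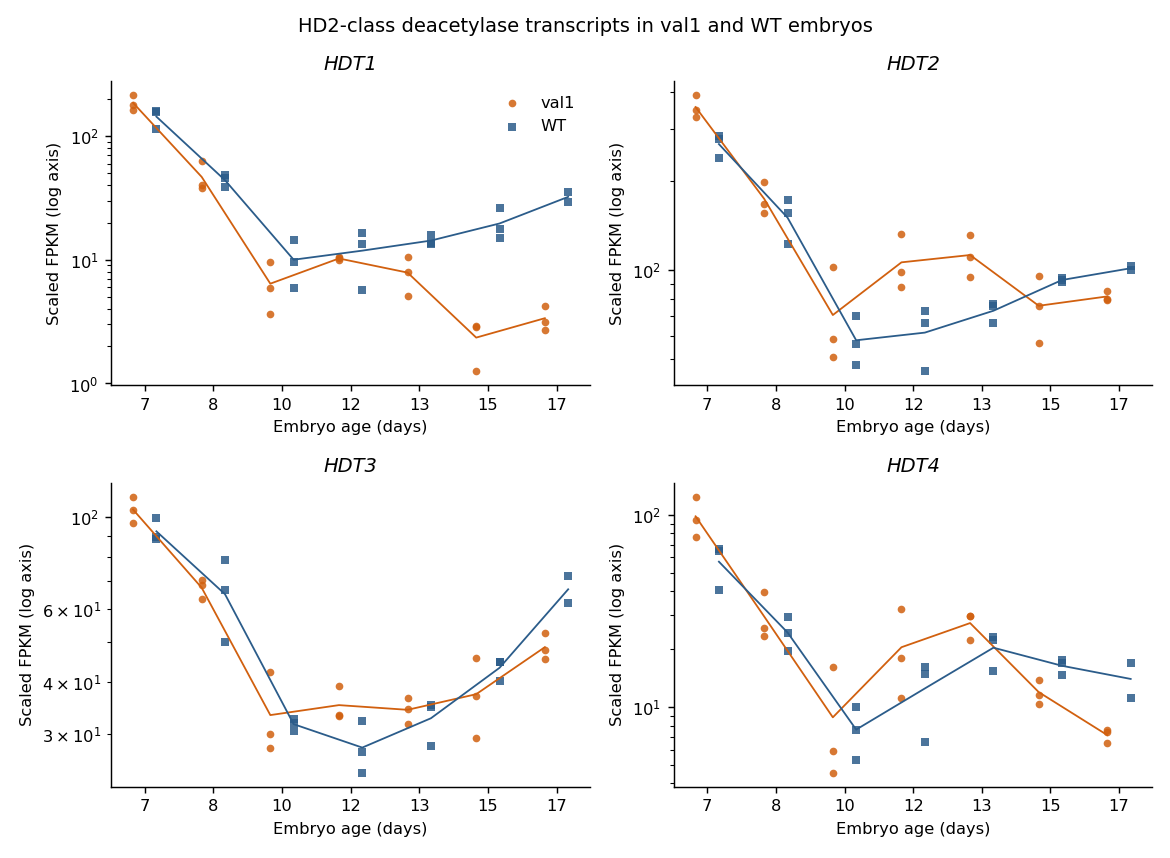
Scaled FPKM (log axis) of HDT1, HDT2, HDT3 and HDT4 in every library by embryo age in days (ages evenly spaced); orange circles are val1, blue squares WT, and lines join group means. HDT1 parts after day 12, where the 3 val1 libraries at day 17 lie between 2.72 and 4.25 and both WT libraries at 29.5 or above.

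HDT1 (HD2A), an HD2-class deacetylase of the nucleolus, was lower in val1 by about an order of magnitude in the oldest embryos. At day 7 its scaled FPKM was 164, 216 and 179 in the val1 libraries, against 156, 161 and 115 in the WT libraries. At day 12 it was 9.88, 10.3 and 10.6 in the val1 libraries, against 13.4, 5.73 and 16.4 in the WT libraries. All val1 libraries of day 7 were above all WT libraries, and at day 12 the ranges overlapped, with the lowest library a WT one. How often the ranges of other genes part in this way was not counted, here or below, so separation alone is no test. At day 13 the values were 10.6, 5.06 and 8.03 in the val1 libraries, against 13.6, 16.0 and 13.3 in the WT libraries, with no overlap, and the difference missed the threshold, at a log2 difference of -0.87 (SE 0.33, limma adjusted p = 0.0648). The day 13 difference passed without val1 replicate 1 of day 13 (limma adjusted p = 0.0466) or the unnumbered WT library of day 12 (0.0384).

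At day 15 HDT1 stood at 1.26, 2.92 and 2.87 in the val1 libraries, against 14.9, 26.5 and 17.7 in the WT libraries. At day 17 it stood at 4.25, 3.15 and 2.72 in the val1 libraries, against 29.5 and 35.1 in the WT libraries. Every val1 library was below every WT library at both ages, by a wide margin. The val1 mean was 11.9% of the WT mean at day 15 and 10.4% at day 17. The log2 difference, val1 minus WT, was -2.85 (SE 0.33, limma adjusted p = 9.28e-08) at day 15 and -3.10 (SE 0.37, limma adjusted p = 1.96e-07) at day 17, on log2(scaled FPKM + 0.5), which understates the change of a low gene. HDT1 was the 1 member of 8 called at day 15, where 17.7% of all genes were called, and the 1 of 8 called at day 17, where 15.6% were. Averaged over the 7 ages its difference was -1.01 (SE 0.13, limma adjusted p = 1.07e-07). The calls at day 15, at day 17 and on average were kept in all 41 fits that left out 1 library each.

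Behind these low values stood an estimated 23 to 71 reads per library in val1 and 219 to 613 in WT at day 15, and 44 to 70 in val1 and 761 to 798 in WT at day 17. The annotated span of HDT1 (TAIR10.1, chromosome 3, 16297656 to 16299876, plus strand, 8 exons) overlaps 315 bases of AT3G44740, a coding gene on the opposite strand, and with no stated use of strand the reads there cannot be told apart. AT3G44740 had scaled FPKM of 2.25 to 3.27 in val1 and 1.91 to 2.21 in WT at day 15, and of 0.456 to 1.39 in val1 and 1.48 to 3.10 in WT at day 17. Its own difference was not called at either age (limma adjusted p = 0.749 and 0.136). Endosperm genes summed to 52.6 to 67.0 in val1 and 79.4 to 224 in WT at day 15, and to 36.6 to 145 in val1 and 35.9 to 45.5 in WT at day 17, nearly all of it EPR1, with 8 of 9 genes averaging under 1. Seed coat genes summed to 15.3 to 22.7 in val1 and 10.9 to 17.5 in WT at day 15, and to 26.6 to 31.0 in val1 and 30.7 to 39.7 in WT at day 17, with 6 of 8 averaging under 1. SBT1.7 made up most of the day 17 sums (means 25.8 in val1 and 34.0 in WT), while MUM4 averaged 2.23 in val1 and 1.05 in WT. By limma 2 of 5 tested, MUM4 and MUM2, were called on average over ages, both higher in val1, beside 32.1% of all genes. At days 15 and 17, 1 of 5 was called at each, higher in val1, beside 17.7% and 15.6%. The part of these tissues in the HDT1 difference was not tested.

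In its order of ages, HDT1 in val1 stood highest at day 7 (186 ± 26.8), next at day 8 (46.8 ± 13.6), and both were apart from all later ages. Days 12, 13, 10, 17 and 15 followed in val1 with means of 10.3, 7.88, 6.42, 3.37 and 2.35, and each neighbour in that order overlapped the next. In WT the order was day 7 (144 ± 25.3), day 8 (44.1 ± 4.98) and day 17 (32.3 ± 3.95), all apart from each other, and then days 15, 13, 12 and 10 with means of 19.7, 14.3, 11.9 and 10.0, which overlapped from one to the next. Values are mean ± SD over 3 libraries, or 2 in WT at day 17. The highest group mean was 79.2 times the lowest in val1 and 14.4 times in WT.

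HDT2 (HD2B), a nucleolar relative of HDT1 on chromosome 5 (TAIR10.1, 7533946 to 7536496, plus strand, 9 exons), was higher in val1 at days 12 and 13. It had the highest mean of the 8 in every group but val1 at days 15 and 17 and WT at day 17, where SAP18 had it. At day 7 its scaled FPKM was 329.7, 392 and 347 in the val1 libraries, against 284, 278 and 239 in the WT libraries. At day 12 it was 98.6, 87.9 and 132 in the val1 libraries, against 72.5, 45.4 and 66.3 in the WT libraries. At day 13 it was 132, 94.7 and 111 in the val1 libraries, against 76.7, 75.6 and 66.3 in the WT libraries. The val1 libraries lay above the WT libraries with no overlap at these 3 ages. The log2 difference was 0.42 (SE 0.21, limma adjusted p = 0.444) at day 7, 0.79 (SE 0.21, limma adjusted p = 0.0116) at day 12 and 0.61 (SE 0.21, limma adjusted p = 0.0375) at day 13. HDT2 was the 1 member of 8 called at day 12 and the 1 called at day 13, where 8.49% and 17.7% of all genes were called.

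At day 15 HDT2 was 75.4, 95.3 and 56.4 in the val1 libraries, against 94.0, 92.8 and 90.9 in the WT libraries, and at day 17 85.1, 80.1 and 79.2 in the val1 libraries, against 103 and 100.03 in the WT libraries. The ranges overlapped at day 15, and at day 17 the val1 libraries were just below the WT ones, with log2 differences of -0.32 (SE 0.21, limma adjusted p = 0.329) and -0.32 (SE 0.23, limma adjusted p = 0.441). The average over ages was 0.23 (SE 0.08, limma adjusted p = 0.0244), so that 2 of 8 members were called on average, HDT1 lower and HDT2 higher, beside 32.1% of all genes. These HDT2 calls sat near the threshold. The day 12 call was lost without val1 replicate 3 (0.62, adjusted p = 0.118) or without the unnumbered WT library of that day (0.59, adjusted p = 0.133). In a fit of the 2 groups of that day alone its adjusted p was 0.0711. The day 13 call was lost on leaving out WT replicate 1, 2 or 3 (adjusted p = 0.0545, 0.0911 and 0.108) or val1 replicate 1 or 3 (0.192 and 0.0908), and the average without val1 replicate 1 of day 8 (adjusted p = 0.0505).

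HDT3 (HD2C), which binds HDA6 and acts in abiotic stress responses, and HDT4 (HD2D) were called at no single age. HDT3 at day 17 was 47.6, 52.4 and 45.5 in the val1 libraries, against 71.9 and 61.8 in the WT libraries. All val1 libraries were below both WT libraries, and the log2 difference of -0.46 (SE 0.17, limma adjusted p = 0.0682) missed the threshold; it passed without the unnumbered WT library of day 8 (adjusted p = 0.046) or val1 replicate 3 of day 10 (0.0459). HDT4 at day 7 was 76.7, 124 and 93.4 in the val1 libraries, against 66.0, 64.5 and 40.4 in the WT libraries. At day 17 it was 7.40, 6.47 and 7.55 in the val1 libraries, against 11.1 and 16.9 in the WT libraries. Its val1 libraries were all above the WT ones at day 7 and all below them at day 17. The log2 differences were 0.78 (SE 0.35, limma adjusted p = 0.346) and -0.90 (SE 0.39, limma adjusted p = 0.131), and neither was called. A limma fit that paired same-numbered val1 and WT libraries within each age called both (adjusted p = 0.0364 and 0.0208).

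HDT3 means by age were 104 ± 7.65, 67.5 ± 3.69, 33.3 ± 7.82, 35.2 ± 3.43, 34.3 ± 2.47, 37.4 ± 8.27 and 48.5 ± 3.57 in val1, and 92.3 ± 6.002, 65.1 ± 14.4, 31.6 ± 1.08, 27.8 ± 4.07, 32.7 ± 4.02, 43.3 ± 2.58 and 66.9 ± 7.14 in WT. HDT4 means by age were 98.2 ± 24.2, 29.6 ± 8.83, 8.84 ± 6.33, 20.5 ± 10.8, 27.3 ± 4.38, 12.0 ± 1.75 and 7.14 ± 0.581 in val1, and 57.0 ± 14.4, 24.4 ± 5.02, 7.63 ± 2.31, 12.5 ± 5.13, 20.3 ± 4.30, 16.4 ± 1.54 and 13.99 ± 4.07 in WT (SD, n = 3, and n = 2 for WT at day 17, days 7 to 17 in order). Both were highest at day 7. HDT3 was lowest at day 10 in val1 and at day 12 in WT, and HDT4 lowest at day 17 in val1 and at day 10 in WT.

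Within the HD2 class the share of HDT1 does not depend on how libraries are scaled. HDT1 took 25.0% ± 0.548 of the summed FPKM of HDT1 to HDT4 in val1 and 25.6% ± 1.61 in WT at day 7. At day 12 its share was 6.12% ± 1.15 in val1 and 10.09% ± 3.38 in WT, and the libraries overlapped, at 4.94 to 7.23% and 6.75 to 13.5%. At day 17 it was 2.39% ± 0.486 in val1 and 15.1% ± 1.92 in WT (mean ± SD, n = 3, and n = 2 for WT at day 17). Every val1 library was below every WT library of its age at day 10, at 3.81 to 6.58% in val1 and 6.63 to 11.4% in WT, and again at days 13, 15 and 17, while at days 7 and 8 the genotypes overlapped. The share of HDT2 at day 17 was 58.0% ± 1.44 in val1 and 47.3% ± 0.681 in WT. The summed level of the class at day 17 was 140.5 ± 4.93 in val1 and 215 ± 1.09 in WT, and that of HDA6, HDA9 and HDA19 was 72.4 ± 2.72 in val1 and 74.6 ± 7.40 in WT.

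**Figure D2:**
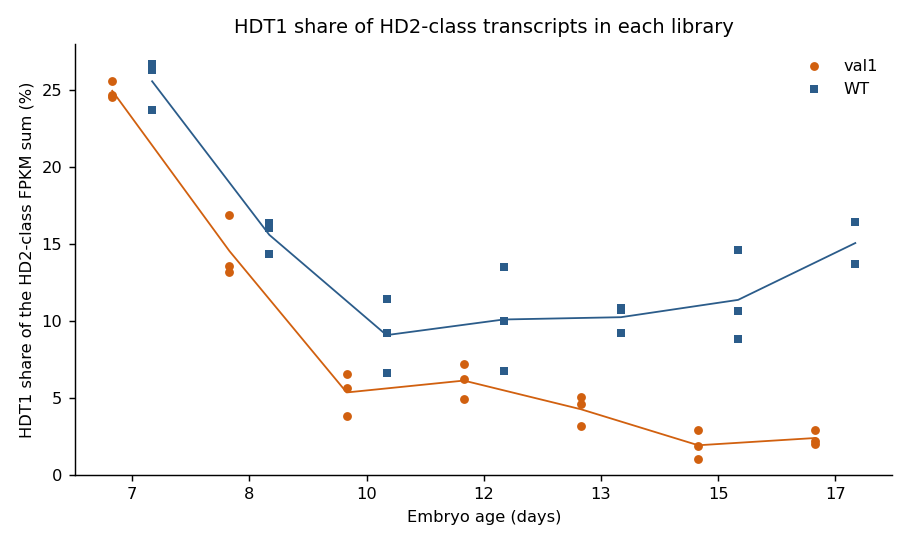
Share of HDT1 in the FPKM sum of HDT1 to HDT4 (percent) in each library by embryo age in days (ages evenly spaced); orange circles are val1, blue squares WT, and lines join group means. The share ends at 2.02 to 2.94% in the val1 libraries and at 13.7 and 16.4% in the WT libraries of day 17.

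The RPD3-class members HDA6, HDA9 and HDA19 were called at no age, on average or in the interaction of genotype and age. HDA19, the deacetylase that TOPLESS and SIN3-type proteins recruit, was the most abundant of them. Its means by age were 75.1 ± 6.42, 63.3 ± 1.20, 38.4 ± 3.75, 38.7 ± 4.16, 39.0 ± 3.57, 43.1 ± 5.70 and 52.8 ± 2.45 in val1, and 74.1 ± 2.65, 57.9 ± 6.76, 38.5 ± 3.79, 36.9 ± 1.76, 38.0 ± 0.614, 49.8 ± 4.19 and 54.2 ± 3.32 in WT. Its daily log2 differences lay between -0.21 and 0.13, with an average of -0.00 (SE 0.04, limma adjusted p = 0.991).

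HDA6, which silences rDNA and transgenes, had means by age of 14.7 ± 1.18, 11.1 ± 0.252, 6.91 ± 1.15, 6.05 ± 0.236, 5.76 ± 0.266, 7.24 ± 1.07 and 8.36 ± 0.225 in val1, and 15.0 ± 0.682, 11.3 ± 1.23, 6.43 ± 0.455, 6.74 ± 1.59, 6.30 ± 0.380, 8.98 ± 1.08 and 9.18 ± 2.71 in WT. HDA9, the partner of POWERDRESS, had means of 12.7 ± 1.30, 10.3 ± 1.42, 6.15 ± 1.32, 7.27 ± 1.13, 8.43 ± 0.797, 10.3 ± 0.552 and 11.2 ± 0.772 in val1, and 12.5 ± 1.54, 10.5 ± 1.17, 7.07 ± 0.761, 6.56 ± 1.44, 8.91 ± 0.662, 12.6 ± 1.03 and 11.3 ± 1.38 in WT (SD, n = 3, and n = 2 for WT at day 17). Daily log2 differences ran from -0.30 to 0.09 for HDA6 and from -0.28 to 0.15 for HDA9. At day 15 the val1 libraries were below the WT ones for both, at 7.78, 7.93 and 6.02 against 10.14, 8.82 and 7.99 for HDA6 and 10.8, 9.69 and 10.4 against 13.8, 11.9 and 12.1 for HDA9, and the log2 differences were -0.30 (SE 0.14, limma adjusted p = 0.151) and -0.28 (SE 0.15, limma adjusted p = 0.197). The HDA6 difference of day 15 was called when libraries were weighted by their spread (-0.34, adjusted p = 0.0398). HDA10 and HDA17 are near copies of parts of HDA9, so reads could be split among them and the HDA9 level is uncertain to that extent. With reference transcripts alone, its rise from day 12 to day 17 was 0.29 in val1 and 0.33 in WT and was not called (adjusted p = 0.112 and 0.113).

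SAP18, the adaptor of SIN3-type and ASAP complexes, had means by age of 156 ± 40.2, 104 ± 8.50, 58.2 ± 2.17, 58.2 ± 6.29, 65.5 ± 7.83, 82.1 ± 2.16 and 99.2 ± 10.00 in val1, and 140.2 ± 23.9, 90.5 ± 8.11, 56.8 ± 0.636, 56.3 ± 6.56, 61.5 ± 4.48, 90.1 ± 9.92 and 106 ± 14.8 in WT. The genotypes overlapped at all 7 ages, and the daily log2 differences lay between -0.13 and 0.20. The average was 0.04 (SE 0.05, limma adjusted p = 0.611). Its ASAP partners SR45 and ACINUS, splicing-linked proteins, were not called either (2 of 2 tested, average log2 differences 0.05 and 0.05, adjusted p = 0.634 and 0.55). By limma, 0 of 2 were at an unadjusted p under 0.05.

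**Figure D3:**
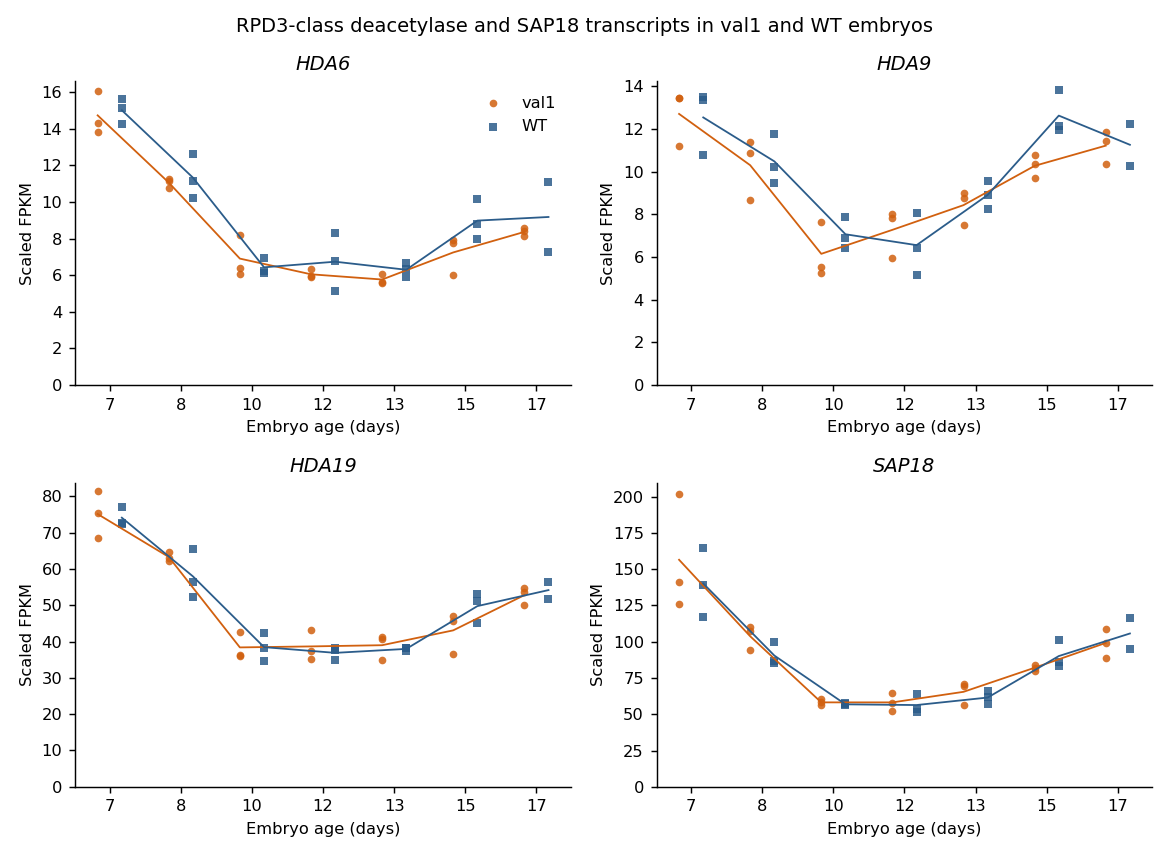
Scaled FPKM of HDA6, HDA9, HDA19 and SAP18 in every library by embryo age in days (ages evenly spaced, axes from 0); orange circles are val1, blue squares WT, and lines join group means. Both genotypes fall from day 7 to a low between days 10 and 13 and rise again, with SAP18 at 89.0 to 109 in val1 and 95.2 to 116 in WT at day 17.

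At days 7, 8 and 10 limma called 0 of 8 members, beside 3.25%, 3.37% and 5.39% of all genes; at an unadjusted p under 0.05 there were 1 (HDT4), 0 and 0, and limma-voom on recovered reads called 0 at each. The plot of daily differences shows that the HD2 members carried all of the called values, HDT1 below 0 and HDT2 above it. At day 15 all 8 members had a log2 difference below 0, with a median of -0.29 against 0.02 over all genes, and HDT1 alone was called. The share of all genes below 0 was not counted, and SAP18 ran from -0.16 to 0.002 over the alternatives.

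**Figure D4:**
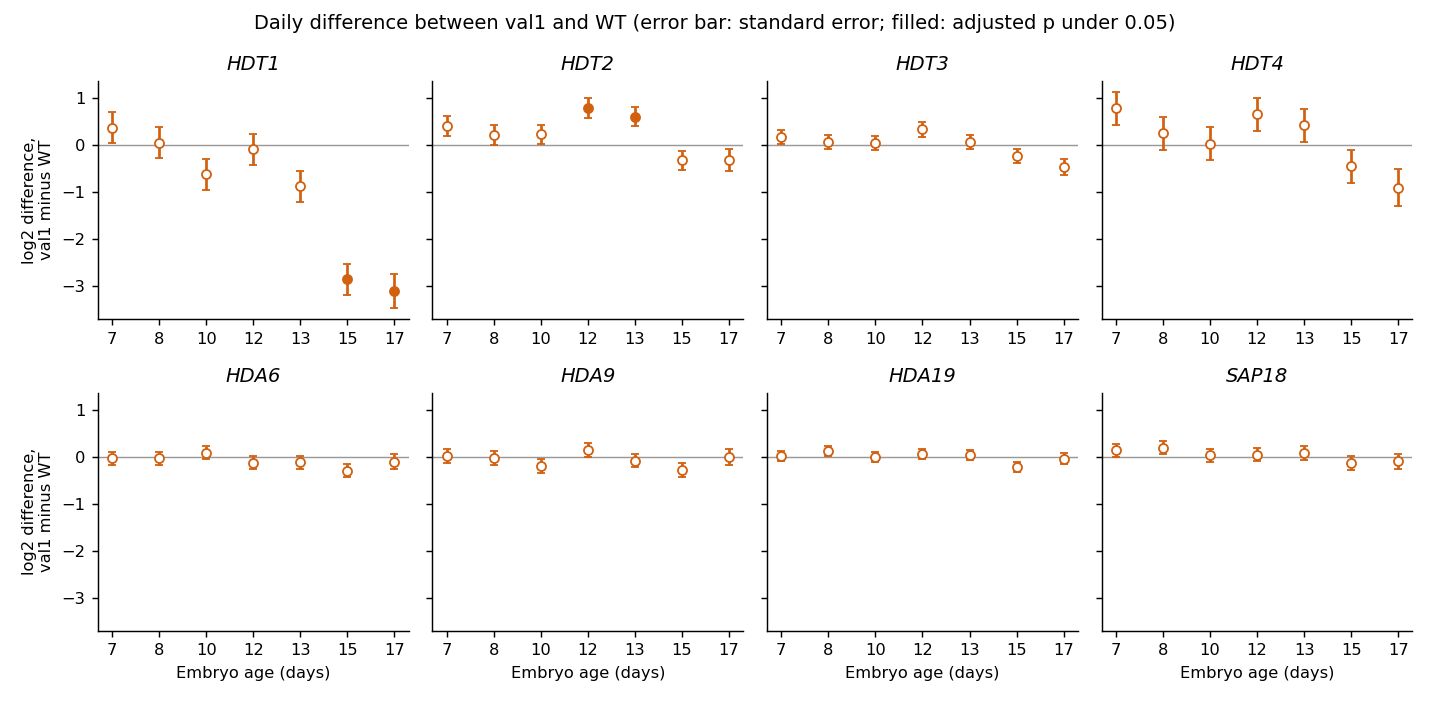
Log2 difference, val1 minus WT, of each member by embryo age in days, from limma on log2(scaled FPKM + 0.5); bars are standard errors and filled points have an adjusted p under 0.05. HDT1 is at -2.85 and -3.10 at days 15 and 17, HDT2 at 0.79 and 0.61 at days 12 and 13, and the open point farthest from 0 is HDT4 at day 17, at -0.90.

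Between day 7 and day 12 all 8 members fell in both genotypes, beside 38.5% of all genes lower in val1 and 38.8% in WT. The median log2 change of the 8 was -1.47 in val1 and -1.51 in WT, against -0.02 and -0.02 over all genes. HDT1 fell by 4.11 in val1 and by 3.65 in WT on the log2 scale (SE 0.33 in each, adjusted p = 1.08e-12 and 1.53e-11). HDA9 changed least, at -0.77 in val1 and -0.90 in WT. For 0 of 8 members did this change differ between genotypes (limma; 0 at an unadjusted p under 0.05, 0 by limma-voom), beside 2.03% of all genes. These changes are relative to scaled libraries: with the FPKM as deposited, the median of all genes moved to -0.98 in val1 and -1.07 in WT.

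Between day 12 and day 17 the HD2 members parted. In WT 7 of 8 members rose and 0 fell, beside 34.3% of all genes higher, with HDT4 at 0.22 (SE 0.39, limma adjusted p = 0.63). In val1 5 rose (HDT3, HDA6, HDA9, HDA19 and SAP18), beside 34.7% of all genes, and 2 fell (HDT1 and HDT4), beside 40.3%. HDT1 changed by -1.49 (SE 0.33, limma adjusted p = 1.50e-04) in val1 and by 1.52 (SE 0.37, limma adjusted p = 4.56e-04) in WT. HDT4 changed by -1.33 (SE 0.35, limma adjusted p = 0.00111) in val1, and HDT2 was at -0.36 (SE 0.21, limma adjusted p = 0.117) in val1 and rose by 0.75 (SE 0.23, limma adjusted p = 0.00481) in WT. The val1 rises of HDT3, HDA6, HDA9, HDA19 and SAP18 were 0.46, 0.44, 0.60, 0.45 and 0.76, against 1.26, 0.41, 0.75, 0.55 and 0.90 in WT. The 5 val1 rises were lost with unscaled FPKM, where the median of all genes stood at -0.35 in val1 and they stood at 0.02 to 0.34; the rise of HDA6 in WT, 0.41, was 0.71 without WT replicate 2 of day 17 and was lost without WT replicate 3 of day 12 (adjusted p = 0.16) or WT replicate 1 of day 17 (0.56).

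**Figure D5:**
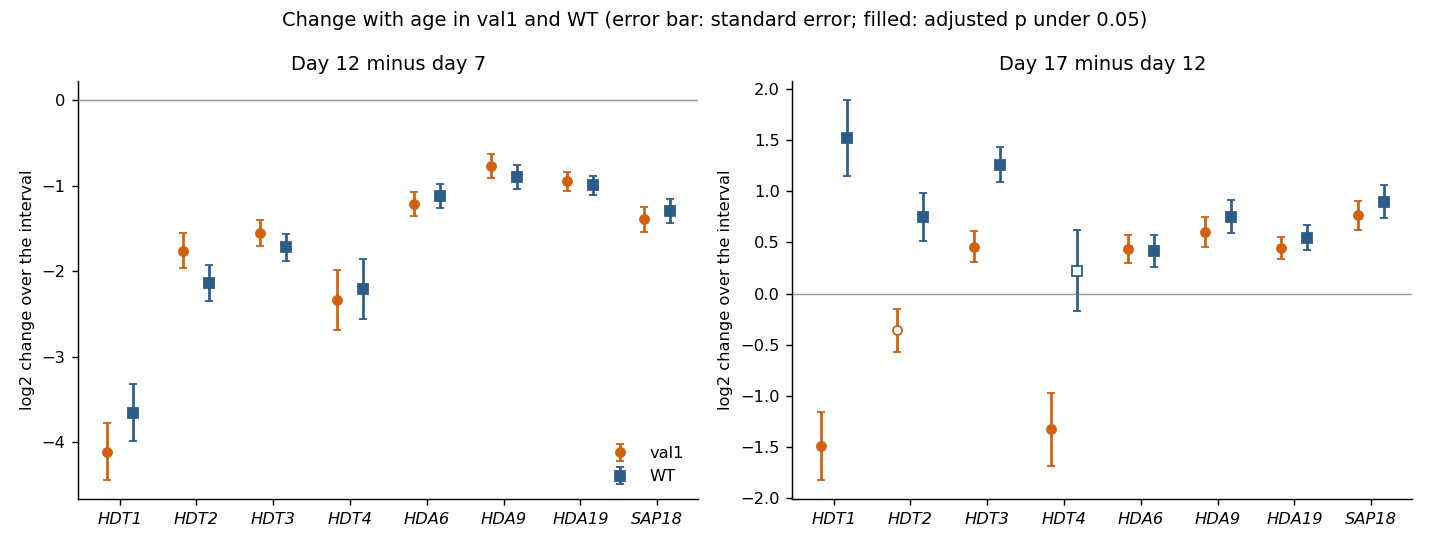
Log2 change of each member from day 7 to day 12 (left) and from day 12 to day 17 (right); orange circles are val1, blue squares WT, bars are standard errors and filled points have an adjusted p under 0.05. On the left all points are below 0, and on the right HDT1 lies at -1.49 in val1 and 1.52 in WT.

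The difference of these late changes, val1 minus WT, was tested directly. It was -3.02 (SE 0.50, limma adjusted p = 1.05e-04) for HDT1, -1.11 (SE 0.31, limma adjusted p = 0.0181) for HDT2 and -0.80 (SE 0.23, limma adjusted p = 0.0213) for HDT3, so that 3 of 8 members were called, beside 11.1% of all genes. HDT4 was at -1.55 (SE 0.53, limma adjusted p = 0.053), and HDA6, HDA9, HDA19 and SAP18 lay between -0.15 and 0.02. The HDT4 difference was called without val1 replicate 1 or 3 of day 10 (limma adjusted p = 0.0433 and 0.0242). It was also called without WT replicate 1 or 3 of day 12 (0.0373 and 0.0408) or the unnumbered val1 library of day 12 (0.0175). The HDT2 call was lost without WT replicate 1 or 2 of day 17 (adjusted p = 0.0717 and 0.058), val1 replicate 3 of day 12 (0.0649) or the unnumbered WT library of day 12 (0.0728). The HDT3 call was lost without WT replicate 1 of day 17 (0.122), WT replicate 3 of day 12 (0.0519), val1 replicate 3 of day 12 (0.0619) or val1 replicate 3 of day 17 (0.0598).

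Over the whole span, day 17 minus day 7, 7 of 8 members were lower in each genotype, beside 46.7% of all genes in val1 and 45.5% in WT. HDA9 was not called, at -0.17 (SE 0.15, limma adjusted p = 0.279) in val1 and -0.15 (SE 0.16, limma adjusted p = 0.408) in WT. With the FPKM as deposited HDA9 was called lower, at -1.69 in val1 and -1.35 in WT (limma adjusted p = 7.78e-08 and 2.56e-05). The median of all genes over this span was then -1.44 in val1 and -1.22 in WT, against -0.23 and -0.24 with scaling. HDT1 fell by 5.60 in val1 and by 2.13 in WT, a difference of -3.47 (SE 0.50, limma adjusted p = 1.66e-05). HDT4 changed by -3.67 in val1 and -1.98 in WT, a difference of -1.68 (SE 0.53, limma adjusted p = 0.0429), and these 2 of 8 were called beside 8.39% of all genes. The HDT4 call was lost on leaving out any 1 of 9 libraries, which were val1 replicates 2 and 3 of day 7 (adjusted p = 0.0916 and 0.0689), each of the 3 val1 libraries of day 17 (0.0728, 0.0594 and 0.0769), WT replicates 2 and 3 of day 7 (0.0542 and 0.103) and WT replicates 1 and 2 of day 17 (0.0585 and 0.216). In WT the SAP18 fall was lost without WT replicate 1 of day 7 (0.132) or of day 17 (0.248), and that of HDT3 without WT replicate 2 of day 17 (0.142). The fall of HDA6 in WT, -0.71, was -0.42 without WT replicate 2 of day 17.

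Whether the genotype difference varied with age was tested over all 7 ages at once. It did for HDT1 (adjusted p = 1.50e-06) and HDT2 (adjusted p = 0.0318), 2 of 8 members, beside 16.8% of all genes. HDT3 and HDT4 were at adjusted p = 0.127 and 0.127, and HDA6, HDA9, HDA19 and SAP18 at 0.814, 0.678, 0.677 and 0.843. The HDT2 call was lost on leaving out any 1 of 10 libraries: the unnumbered WT library of day 12 (adjusted p = 0.0571), WT replicate 1 or 2 of day 15 (0.0555 and 0.052) or of day 17 (0.0691 and 0.0616), val1 replicate 3 of day 12 (0.0614), val1 replicate 1 of day 13 (0.0503), val1 replicate 1 or 3 of day 15 (0.052 and 0.0677) or val1 replicate 3 of day 17 (0.0545).

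The authors' deposited table lists transcripts past their own threshold, and 4 of the 15 transcripts of the members are in it, of HDT1 and HDT2. For AT3G44750.1, the main HDT1 form, the authors' deposited table gives log2 differences of -3.05 at day 15 and -3.24 at day 17. Its columns do not state their direction, and for both main forms their signs were those of val1 minus WT here at all 7 ages. It holds 1 F test per transcript over all days and no p-value for a single age. That F test had an adjusted p of 8.44e-08 for AT3G44750.1. For AT5G22650.1, the main HDT2 form, the authors' deposited table gives 0.82 at day 12 and 0.64 at day 13. The F test over all days had an adjusted p of 0.00429 for this form, which is no test of day 12 or day 13.

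Over the 14 group means of log2 values, the members correlated with each other at 0.527 (HDT1 with HDA9) to 0.981 (HDT3 with HDA19) in 28 pairs, and all share the same libraries. HDT3 thus ran closer to HDA19, SAP18 (r = 0.955) and HDA6 (0.953) than to HDT4 (0.729), and HDT4 ran closest to HDT2 (0.924). Among 15607 other genes, those most like HDT1 were NAP57 (AT3G57150), AT1G52930 and NOP56 (AT1G56110) (r = 0.994, 0.994 and 0.988). NAP57 is the pseudouridine synthase of rRNA-modifying particles, NOP56 a core protein of such particles, and AT1G52930 is annotated as a Brix-domain protein of rRNA processing. Those most like HDT2 were PPAN (AT5G61770), AT1G29250 and La1 (AT4G32720) (r = 0.993, 0.991 and 0.987), with PPAN annotated as PETER PAN-like, AT1G29250 as an Alba DNA/RNA-binding protein and La1 as La protein. Those most like HDT4 were OLI2 (AT5G55920), AT3G23620 and AT1G08580 (r = 0.971, 0.970 and 0.968), of which AT3G23620 is another Brix-domain protein.

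Those most like HDT3 were EMB2729 (AT3G20440), SR34 (AT1G02840) and AT4G03120 (r = 0.990, 0.990 and 0.987), with SR34 a splicing factor. For HDA6 they were AT3G60210, ARP5 (AT3G12380) and AT2G11890 (r = 0.989, 0.989 and 0.985), and for HDA19 AT1G14650, PDF1A (AT1G15390) and AT4G03120 (r = 0.994, 0.992 and 0.991); AT4G03120, a zinc finger protein by its annotation, is named for both HDT3 and HDA19. For HDA9 they were AT3G07910, AT1G53530 and AT3G18580 (r = 0.970, 0.969 and 0.967). For SAP18 they were AT4G02450, ATO (AT5G06160) and GR-RBP6 (AT1G18630) (r = 0.993, 0.991 and 0.989), with ATO annotated as splicing factor-like and GR-RBP6 as a glycine-rich RNA-binding protein.

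Upstream windows of the 8 members, the 250 bases before the annotated gene start in the TAIR10.1 genome, were searched for 4 motifs. Site II, a promoter motif of genes expressed in dividing cells, was in 2 of 8 windows, beside 19.2% of the same windows of 27443 coding genes, so that this count sets no member apart. Both windows are shown so that the matches can be read in place, 5′ to 3′ on the gene's strand with site II matches (TGGGCC or TGGGCT on either strand) in capitals. HDT3 lies on the plus strand of chromosome 5 (gene 981859 to 984289, 8 exons, window chr5:981609-981858) and HDA19 on the minus strand of chromosome 4 (gene 17896278 to 17899509, 7 or 8 exons, window chr4:17899510-17899759).
HDT3: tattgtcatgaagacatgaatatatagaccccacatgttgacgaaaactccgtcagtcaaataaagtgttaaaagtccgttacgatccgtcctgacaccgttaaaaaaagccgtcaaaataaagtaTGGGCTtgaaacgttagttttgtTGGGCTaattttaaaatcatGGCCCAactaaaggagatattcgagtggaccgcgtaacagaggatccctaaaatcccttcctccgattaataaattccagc
HDA19: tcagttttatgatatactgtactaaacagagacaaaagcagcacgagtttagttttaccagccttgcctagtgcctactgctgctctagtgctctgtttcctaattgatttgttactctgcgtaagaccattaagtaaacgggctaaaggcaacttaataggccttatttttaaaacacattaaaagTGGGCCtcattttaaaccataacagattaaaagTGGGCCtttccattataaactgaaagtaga
The HDT3 window holds 3 matches and the HDA19 window 2. The telo-box AAACCCTA (4.49% of windows), the B3-domain motif RY, CATGCA (8.43%), and the G-box CACGTG (6.49%), searched on both strands, were in 0 of the 8 windows. A match is a run of letters in this window and nothing more.

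Of 11 other deacetylases listed, 8 were tested and 2 were called on average, 1 in each direction, beside 32.1% of all genes, which does not set the list apart, with a median log2 difference of 0.04 against 0.02 over all genes. SRT1, a sirtuin, was higher in val1, at 0.56 (SE 0.07, limma adjusted p = 8.55e-08), with 4.88 ± 0.863 in val1 and 1.77 ± 0.741 in WT at day 15. HDA2, an RPD3-class relative, was lower, at -0.27 (SE 0.08, limma adjusted p = 0.0106), with 16.3 ± 4.27 in val1 and 28.8 ± 6.45 in WT at day 13. HDA7, HDA10 and HDA18 did not pass the filter on low values.

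Of 12 genes of SIN3-type complexes, 12 were tested, 3 were higher and 1 lower on average (median 0.05 against 0.02 over all genes), and 1 was called in the interaction, beside 32.1% and 16.8% of all genes. AFR2, a SAP30-like subunit, was at 0.77 (SE 0.14, limma adjusted p = 8.69e-05), with an interaction adjusted p of 3.42e-04. At day 15 AFR2 had 8.03 ± 4.55 in val1 and 0.450 ± 0.365 in WT, against 53.3 ± 2.60 in val1 and 48.1 ± 10.8 in WT at day 12. It was higher in val1 at day 13, by 1.21 (SE 0.38, limma adjusted p = 0.0226), and at day 15, by 3.04 (SE 0.38, limma adjusted p = 3.27e-07). MSI5, a WD40 histone-binding protein, was at -0.48 (SE 0.07, limma adjusted p = 6.83e-07), with 4.72 ± 0.521 in val1 and 7.95 ± 1.48 in WT at day 7. At day 15 it averaged 0.0543 in val1 and 0.0428 in WT, under the 0.5 added before logs, so its average rests on earlier ages. SNL5 and SNL6, SIN3-like scaffolds, were at 0.18 and 0.18 (limma adjusted p = 0.00446 and 0.0462).

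Of 11 other corepressor genes, 11 were tested and 1 was called on average, beside 32.1% of all genes. It was TPR3, a TOPLESS relative, at -0.29 (SE 0.07, limma adjusted p = 7.81e-04) (list median -0.00 against 0.02 over all genes). Of 12 histone acetyltransferases, 10 were tested and limma called 0 on average and 0 in the interaction, beside 32.1% and 16.8% of all genes; 0 and 1 (HAG3) were at an unadjusted p under 0.05. The median of these 10, the enzymes that oppose the members, was -0.01, against 0.02 over all genes.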

How the data were processed

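Embryo mRNA of 2 genotypes and 7 ages was sequenced in 41 libraries. TopHat2, StringTie and the build TAIR10 are named in the submitters' processing notes, with no versions, roles or strand setting. The authors deposited FPKM per assembled transcript, normalised to depth and length. The transcripts of each gene that matched or extended the reference model (52881 of 53988) were summed to 33544 genes. The second sheet deposited by the authors is named for counts, but 99.9997% of its values above 0 are not whole, so it is taken as a score of unstated making and serves as an alternative. The authors' deposited table gives log2 differences and p-values per transcript, and transcript lengths in bases were deposited beside the FPKM.

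Scaling between libraries used trimmed means of the log ratios (30% and 5% trimmed). The 18389 genes that reached 1 FPKM in 2 or more libraries were tested on log2(scaled FPKM + 0.5) with limma 3.58.1 (R 4.3.3, trended prior, 14 group means, 27 residual degrees of freedom), with Benjamini-Hochberg adjustment over all genes and a threshold of 0.05. The design foresaw a count test for counts; none was made, since no sheet held whole counts. Interaction and age effects are F tests in the same fit. Tables and plots used Python 3.11.15, numpy 2.4.6, pandas 2.3.3 and matplotlib 3.10.9.

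Depth was estimated from FPKM times length, taking the smallest value above 0 in a library as 1 read shared by 3 transcripts; values under 5 reads then fell on steps of 1 in 12 reads (tolerance 0.02). Counting precision follows from these estimates alone. The column names gave genotype, day and replicate number for 37 libraries, and 4 were named as replacements and used with their group alone. Replicates of a group correlated at 0.968 to 0.991 over genes and differed beyond sampling noise in all 40 pairs. Coordinates and upstream windows are from RefSeq TAIR10.1, in which 8 of 8 members and 32812 of 33544 genes were matched.

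The members, gene lists and tests were chosen with earlier results of these data known. All 8 members are named, with the 3 genes most like each by Pearson correlation over 14 group means, and list genes called on average or in the interaction. Alternatives were other scalings, pseudocounts, filters, transcript classes, the second sheet, limma-voom on recovered reads, library weights, each day alone, replicate blocks and leaving out each library.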

Additional observations from a re-analysis of the deposited data

Results flagged for a closer look

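The difference between genotypes depended on age for HDT1 (limma F test, adjusted p = 1.50e-06, with all val1 libraries above all WT libraries at day 7 and below them at days 13, 15 and 17) and for HDT2 (adjusted p = 0.0318, with all val1 libraries above at days 7, 12 and 13 and below at day 17). The change from day 12 to day 17 differed between val1 and WT by -3.02 for HDT1, -1.11 for HDT2 and -0.80 for HDT3 on the log2 scale. The change from day 7 to day 17 differed by -3.47 for HDT1 and -1.68 for HDT4. Each called value was a test of the difference itself, and the separation of libraries was not tested. Of all genes, 16.8% were called in the interaction, 11.1% for the difference of day 17 minus day 12 and 8.39% for that of day 17 minus day 7. Leaving out 1 library lost the HDT2 interaction in 10 of 41 fits and the HDT4 difference in 9. The HDT2 and HDT3 differences of day 17 minus day 12 were lost in 4 fits each, and the HDT1 calls in 0.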

How the results depend on the processing

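Over 14 alternatives other than leaving out a library, 2014 of 2072 member values kept their side of the threshold, with no change of direction in a called value. Of the rest, 34 lost a call, 22 gained one and 2 reversed, with a call in at least 1 of the fits compared. Over the 41 fits without 1 library, 6509 of 6560 were kept by this rule, 40 lost a call, 11 gained one and 0 reversed. Changes of direction between values that were not called were left uncounted, and they did occur. HDT1 at day 12 ran from -0.52 to 0.14 over the alternatives and from -0.52 to 0.21 over the fits without 1 library. The reversed values were those of HDA9 in val1 with the second sheet, 0.43 for day 12 minus day 7 and -0.075 for day 17 minus day 12, where its age effect was not called (adjusted p = 0.598). The number of members called moved as follows. Without scaling it was 1 on average, 0 at day 12, 0 at day 13, 2 at day 17 (HDT3 gained), 3 for val1 day 17 minus day 12, 4 for the difference of day 17 minus day 12 (HDT4 gained), 1 for that of day 17 minus day 7 and 1 in the interaction. With the second sheet it was 0 at day 13, 4 for WT and 4 for val1 day 17 minus day 12, 1 for the difference of day 17 minus day 7 and 1 in the interaction. In a fit of each day alone it was 0 at day 12 and 2 at day 17 (HDT4 gained). With library weights it was 2 at day 15 (HDA6 gained), 2 at day 17 and 3 in the interaction (HDT3 gained), 4 for the difference of day 17 minus day 12 (HDT4 gained), and still 2 for that of day 17 minus day 7, where HDT3 was gained and HDT4 lost. With a filter at 5 FPKM in 3 libraries it was 2 at day 17 (HDT3 gained) and 4 for the difference of day 17 minus day 12 (HDT4 gained), and with reference transcripts alone 0 at day 13. For the difference of day 17 minus day 7 it was 1 with limma-voom on recovered reads and 1 with no filter. Numbered libraries alone, an alternative chosen after seeing the data, gave 0 at day 12 and 2 at day 13 (HDT1 gained, adjusted p = 0.0478). Leaving out 1 library gave 1 to 2 on average, 0 to 1 at day 12, 0 to 2 at day 13, 1 to 2 at day 17, 1 to 4 for the difference of day 17 minus day 12, 1 to 2 for that of day 17 minus day 7 and 1 to 3 in the interaction. The cause was not tested. Of the counts over all genes, 66 of 1079 moved by over 1.5 times, from 107 against 597 (day 7, that day alone) to 2055 against 620 (day 8, library weights). With FPKM as deposited the median over all genes was -0.24 at day 17, and 24.7% of the calls there were higher, against 64.3% with scaling.

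The replicate numbers were not taken to pair the libraries. Same-numbered val1 and WT libraries of an age had deviations that correlated at -0.26 to 0.60 (18 pairs, median 0.44, 15 over 0.1). Differently numbered ones had a median of -0.19 (32 pairs). Both same-numbered pairs of day 17 were below 0, but the deviations of the 2 WT libraries there mirror each other, so those signs say little. Every library correlated best with its own number at 5 of 7 ages, a hint from the data and not from the design. With the replicate block the members called were 0 at day 12 (HDT2 at adjusted p = 0.097), 2 at day 13 (HDT1 gained, 0.0449), 1 on average (HDT2 at 0.0523), 1 in the interaction (HDT2 at 0.0512) and 2 for the difference of day 17 minus day 12 (HDT2 at 0.0533). With the block within age they were 1 at day 7 (HDT4, 0.0364), 2 at day 13 (HDT1 gained, 0.00298), 2 at day 17 (HDT4 gained, 0.0208), 3 in the interaction (HDT4 gained, 0.00823) and 4 for the difference of day 17 minus day 12 (HDT4 gained, 0.0132). Depth limits HDT1 most, with 23 to 71 estimated reads in val1 libraries at day 15.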

Other observations

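The main transcript forms of the members kept their shares across the 14 groups. AT3G44750.1 made up 88.1 to 92.2% of HDT1, AT5G22650.1 87.6 to 89.9% of HDT2 and AT2G45640.1 77.4 to 79.0% of SAP18, as group means of the unscaled FPKM. For HDA9 an assembled form that extends the reference model (1746 bases) made up 82.4 to 86.0%, and the reference form AT3G44680.1 6.18 to 9.53%. HDT3 and HDA6 were listed with 1 form each.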
